A study of Rattus norvegicus with 12 samples.

Results

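Expression of genes that drive and carry out cell division was followed in newborn rat muscle after 3 maternal diets. The set was fixed by name and holds 43 genes: 8 that act in G1, 12 that act in S phase and 23 that act in G2 and mitosis. A gene was measured by the probe set that carries its symbol, and by the one with the highest mean over all arrays where there were several. This found 39 of the 43 genes, that is 8 in G1, 10 in S phase and 21 in G2 and mitosis, among 11053 genes with 1 symbol and 18957 detected probe sets. Mki67, Cenpf, Mcm3 and Mcm4 have no probe set named in the annotation used and were not analysed here.

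The tissue was skeletal muscle of the hind leg, taken from male Wistar pups as newborns. From day 1 of gestation the dams ate either the control diet (control), a diet low in protein (low protein), or the latter while drinking water with 2% (w/v) taurine (low protein plus taurine). Each array held RNA pooled from 3 male newborns of a single dam, and there were 4 arrays per group, numbered 1 to 4, so the dam was the replicate. Values are log2 expression values, on which a difference of 1 is a doubling, and array medians lay between 7.66 and 7.75. They were 7.66 to 7.67 in control, 7.73 to 7.75 in low protein and 7.71 to 7.74 with taurine. Every control array thus had a lower median than every other array, and the main fit did not centre the arrays on these medians. With 12 arrays, their number limits the precision. As whole muscle was measured, fewer dividing cells and less RNA per dividing cell cannot be told apart.

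Cells leave G1 when D-type cyclins with Cdk4, followed by E-type cyclins with Cdk2, release E2F transcription factors from the retinoblastoma proteins. E2F factors drive the genes of DNA replication, among them the Mcm helicase subunits and the enzymes that make deoxynucleotides. Genes of G2 and mitosis, such as the B-type cyclins, Cdk1 and the spindle kinesins, are switched on later, in large part through CCAAT boxes and cell cycle genes homology regions in their promoters. In newborn muscle the dividing cells include myoblasts, fibroblasts and endothelial cells, while muscle fibre nuclei have left the cycle.

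The promoters of 5 members from the 3 classes are shown to set side by side which cell cycle elements each holds. They are the 250 bases before the annotated start in RefSeq's table for build GRCr8, 5′ to 3′ on the strand of the gene, with matches in capitals. The motifs searched on both strands were the E2F element TTTNNCGC, the cell cycle genes homology region TTTGAA and the CCAAT box CCAAT, and capitals run together where matches overlap. Ccnd3, a D-type cyclin of G1, lies at chr9:20897876-20898125 (minus strand). The helicase genes Mcm5 and Mcm2 lie at chr19:13488563-13488812 (plus strand) and chr4:122918095-122918344 (minus strand). Cdk1 and Ccnb2, the mitotic kinase and a B-type cyclin, lie at chr20:19265043-19265292 (plus strand) and chr8:79981659-79981908 (minus strand).
Ccnd3: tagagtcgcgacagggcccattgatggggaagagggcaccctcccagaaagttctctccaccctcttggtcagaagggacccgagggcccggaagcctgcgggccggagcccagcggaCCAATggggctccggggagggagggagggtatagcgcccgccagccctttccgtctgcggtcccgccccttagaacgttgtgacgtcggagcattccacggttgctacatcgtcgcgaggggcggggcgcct
Mcm5: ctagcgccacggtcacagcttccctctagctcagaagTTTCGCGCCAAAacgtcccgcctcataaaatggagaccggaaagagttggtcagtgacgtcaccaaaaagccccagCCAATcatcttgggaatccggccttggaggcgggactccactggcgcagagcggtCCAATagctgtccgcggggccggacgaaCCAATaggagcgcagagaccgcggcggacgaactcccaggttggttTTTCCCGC
Mcm2: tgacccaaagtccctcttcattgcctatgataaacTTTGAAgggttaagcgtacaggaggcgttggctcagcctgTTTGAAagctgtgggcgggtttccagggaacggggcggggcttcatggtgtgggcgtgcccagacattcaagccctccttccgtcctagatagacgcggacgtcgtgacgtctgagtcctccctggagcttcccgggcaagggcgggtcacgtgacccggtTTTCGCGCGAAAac
Cdk1: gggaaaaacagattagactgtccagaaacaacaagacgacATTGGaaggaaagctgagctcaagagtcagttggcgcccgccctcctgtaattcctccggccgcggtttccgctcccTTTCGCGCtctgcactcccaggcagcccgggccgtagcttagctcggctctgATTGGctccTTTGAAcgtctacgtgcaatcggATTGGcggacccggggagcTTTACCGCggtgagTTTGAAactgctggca
Ccnb2: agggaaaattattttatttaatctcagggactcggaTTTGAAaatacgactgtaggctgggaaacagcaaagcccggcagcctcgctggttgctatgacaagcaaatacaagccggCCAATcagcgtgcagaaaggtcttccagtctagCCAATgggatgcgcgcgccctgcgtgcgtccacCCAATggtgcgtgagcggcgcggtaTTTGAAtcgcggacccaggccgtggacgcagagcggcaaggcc
Mcm5 holds 3 matches to the E2F element and 3 CCAAT boxes, Mcm2 holds 2 E2F matches and 2 homology regions, and Cdk1 holds 2 of each of these and 3 CCAAT boxes. Matches were counted on each strand. The 2 E2F matches of Mcm2, and 2 of the 3 of Mcm5, overlap on opposite strands, while the 2 of Cdk1 lie apart. Ccnb2 holds 2 homology regions and 3 CCAAT boxes, and Ccnd3 holds 1 CCAAT box, so the elements did not separate the classes gene by gene. The table held promoters for 32 of the 43 members, with 2 starts for Kif2c. An E2F element was present in 5 of 9 S phase promoters, in 3 of 20 promoters of G2 and mitosis and in 0 of 4 of G1, against 4.11% of 33469 promoters in the table. The cell cycle genes homology region was present in 8 of 20 promoters of G2 and mitosis and in 1 of 9 of S phase, against 16.2% of all. A CCAAT box was present in 15 of 20 promoters of G2 and mitosis, 6 of 9 of S phase and 2 of 4 of G1, against 34.0% of all. Among genes outside the set, an E2F element was present in 9 of 38 promoters of other replication genes, and a homology region in 25 of 45 of other mitotic genes. These are matches of letters in a window and not sites shown to be bound.

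**Figure D1:**
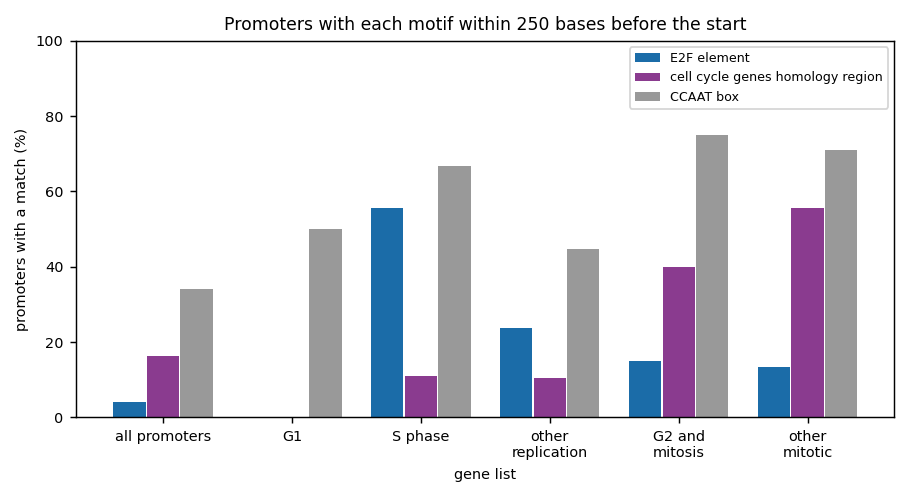
Share of promoters with at least 1 match within 250 bases before the start (y axis, percent), by gene list (x axis) and motif (bar colour). S phase members hold the E2F element in 55.6% of promoters, and members of G2 and mitosis hold the homology region in 40% of them, against 4.11% and 16.2% of all promoters.

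The arrays differed in tissue composition before any comparison of diets. The 7 muscle fibre markers measured averaged between 12.84 and 13.06 on every array, so muscle RNA was present throughout. This does not show that other tissue was absent, and control 4 was the lowest of the 12 arrays in 6 of these 7 markers. The 12 hepatocyte markers measured of 19 listed averaged 6.52 and 6.81 in control 1 and control 2, but 10.28 and 11.25 in control 3 and control 4, and between 6.55 and 7.82 on the other 8 arrays. The 9 erythroid markers measured of 14 averaged 7.77 and 8.02 in control 1 and control 2, 8.59 and 9.33 in control 3 and control 4, and between 7.77 and 8.31 on the others. Newborn liver is a site of blood formation and holds dividing erythroid precursors. Results against control are therefore given with and without control 3 and control 4.

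**Figure D2:**
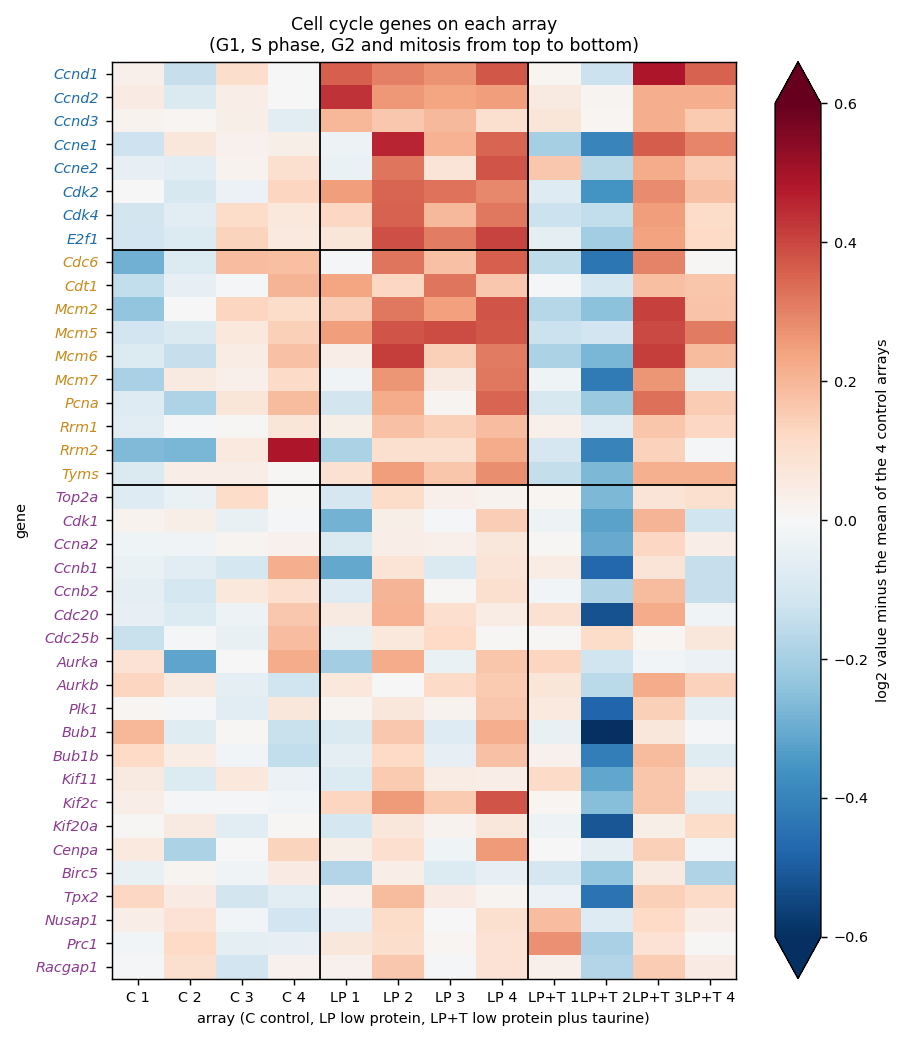
Log2 value of each of the 39 measured genes (rows) on each of the 12 arrays (columns), as the difference from the mean of the 4 control arrays. Genes of G1 and S phase are red on most low protein arrays and on low protein plus taurine 3, genes of G2 and mitosis stay near white, and low protein plus taurine 2 is blue in nearly every row.

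Low protein against control asks what the maternal diet did to the newborn muscle. In G1, 4 of 8 members rose at an adjusted p of 0.05 in limma (Benjamini-Hochberg over all probe sets), and all 8 lay above 0, with a median log2 fold change of 0.27. In S phase 1 of 10 rose, with all 10 above 0 and a median of 0.20, and in G2 and mitosis 1 of 21 rose, with 18 of 21 above 0 and a median of 0.05. The median over all probe sets was 0.07, and over the 6589 named probe sets above the median level it was 0.15. Above 0 lay 11665 of all 18957 probe sets and 5743 of those 6589. In all 6 of 39 members rose and 0 fell, or 15.4%, while 33.7% of all probe sets passed, with 21.8% higher and 11.9% lower. Among probe sets with 1 symbol 26.4% rose, and among those above the median level 35.8% rose, so the members' 15.4% does not exceed the background. The difference between the classes was not tested.

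The D-type cyclins, which bring Cdk4 to the retinoblastoma protein, were higher in all 3 genes. Ccnd1 was at 9.07, 8.91, 9.15 and 9.04 in control 1 to 4 and at 9.40, 9.34, 9.31 and 9.42 in low protein 1 to 4. Every low protein array lay above every control array, and the mean rose 1.25-fold, from 9.04 ± 0.10 to 9.37 ± 0.05 (SD, n = 4), with a limma adjusted p of 0.0433. Ccnd2 was at 10.12, 9.99, 10.11 and 10.07 in control and at 10.51, 10.33, 10.31 and 10.33 in low protein. It rose by 0.30 (SE 0.07; limma adjusted p = 0.00905), again with no overlap, and low protein 1 stood above the other arrays. Ccnd3 was at 11.12, 11.11, 11.13 and 11.02 in control and at 11.29, 11.26, 11.29 and 11.19 in low protein. It rose by 0.16 (SE 0.055; limma adjusted p = 0.0393), a 1.12-fold change, and its groups did not overlap.

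E2f1, the E2F factor that activates replication genes, was at 7.44, 7.48, 7.69 and 7.62 in control and at 7.63, 7.94, 7.86 and 7.97 in low protein. It rose by 0.29 (SE 0.10; limma adjusted p = 0.0442), although low protein 1 lay within the control range. The kinase genes Cdk2 and Cdk4 had log2 fold changes of 0.30 (limma adjusted p = 0.0524) and 0.25 (0.0547), and in both genes all low protein arrays lay above all control arrays. The E-type cyclins Ccne1 and Ccne2, partners of Cdk2, were at 0.25 (SE 0.155) and 0.18 (SE 0.10) and did not pass. Arrays did not overlap, with low protein higher, in 9 of 39 members, against 22.2% of all probe sets.

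In S phase the helicase subunit gene Mcm5 was at 7.60, 7.63, 7.78 and 7.86 in control and at 7.97, 8.09, 8.11 and 8.09 in low protein. It rose 1.27-fold, with means of 7.72 ± 0.12 and 8.06 ± 0.07 (SD, n = 4), a limma adjusted p of 0.034 and no overlap. Cdt1, which loads the helicase on DNA, was at 7.24, 7.33, 7.37 and 7.58 in control and at 7.62, 7.50, 7.70 and 7.54 in low protein. Its log2 fold change of 0.21 did not pass (limma adjusted p = 0.0707), and control 4 lay among the low protein arrays. Pcna, the sliding clamp of the polymerases, was at 9.38, 9.27, 9.53 and 9.65 in control and at 9.35, 9.68, 9.47 and 9.81 in low protein, with groups that overlapped and a log2 fold change of 0.12 (95% interval -0.165 to 0.402). The helicase genes Mcm2 (0.27), Mcm6 (0.23) and Mcm7 (0.15), the helicase loader Cdc6 (0.21), Tyms (0.20), which makes thymidylate, and the ribonucleotide reductase genes Rrm1 (0.13) and Rrm2 (0.06) did not pass. Rrm2 was at 9.29 in control 4 against 8.54, 8.53 and 8.87 in the other controls, the array with the highest hepatocyte and erythroid markers.

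In G2 and mitosis Kif2c, a kinesin that removes tubulin from microtubule ends, was at 7.29, 7.24, 7.24 and 7.23 in control and at 7.38, 7.51, 7.41 and 7.63 in low protein. It rose by 0.23 (SE 0.08; limma adjusted p = 0.0457), and its groups did not overlap. Cdk1 was at 8.49, 8.50, 8.42 and 8.45 in control and at 8.18, 8.50, 8.46 and 8.62 in low protein. Its difference was -0.03 (95% interval -0.26 to 0.20), with low protein 1 as the lowest and low protein 4 as the highest of these 8 arrays.

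Cenpa, the centromeric histone H3 variant, was at 7.59, 7.34, 7.53 and 7.66 in control and at 7.56, 7.63, 7.50 and 7.78 in low protein, with a difference of 0.09 that did not pass (limma adjusted p = 0.378). The other 18 members of this class, among them Top2a (0.02), Ccna2 (0.01), Ccnb1 (-0.06), Ccnb2 (0.06), Aurka (0.03), Aurkb (0.08), Plk1 (0.07), Bub1 (0.05), Bub1b (0.05), Kif11 (0.04), Birc5 (-0.07) and Tpx2 (0.07), did not pass either. These genes encode the topoisomerase that untangles DNA, cyclins, mitotic kinases, checkpoint and spindle proteins. For Top2a the 95% interval of the difference ran from -0.16 to 0.19 and for Ccnb1 from -0.33 to 0.21. The remaining log2 fold changes were 0.10 for Cdc20, 0.04 for Cdc25b, 0.01 for Kif20a, 0.04 for Nusap1, 0.07 for Prc1 and 0.07 for Racgap1. Cdc20 activates the anaphase-promoting complex, Cdc25b activates Cdk1, and Kif20a, Nusap1, Prc1 and Racgap1 serve the spindle and cytokinesis.

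**Figure D3:**
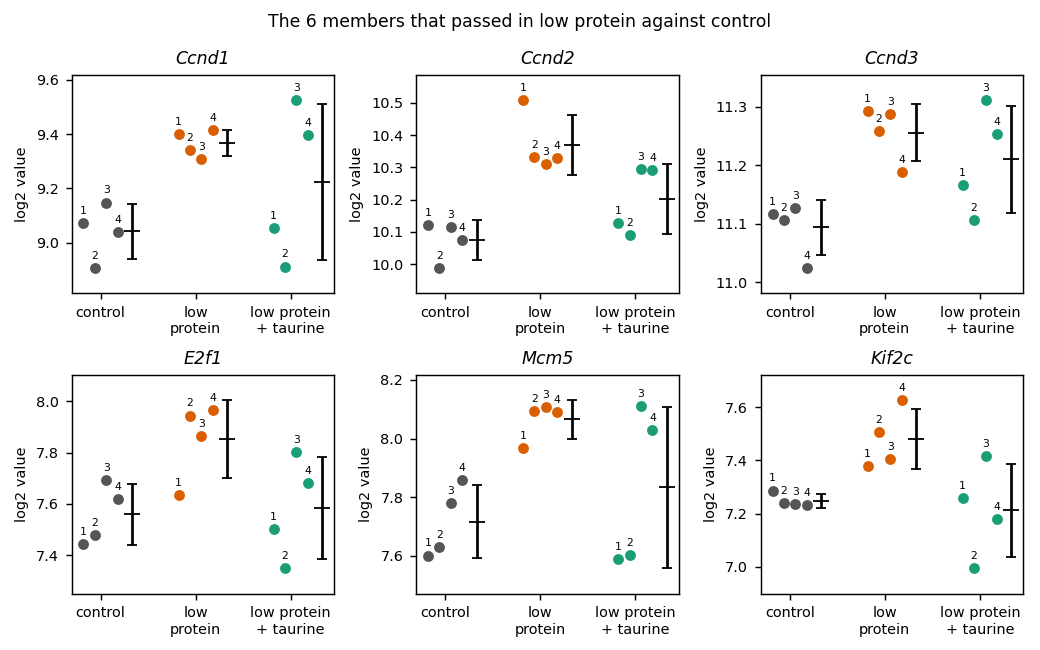
Log2 values of the 6 genes that rose in low protein against control, with a point per array (numbered 1 to 4) and the mean with its SD as a black bar (n = 4). The low protein arrays lie above all controls in 5 of the genes and overlap them in E2f1, and taurine arrays 3 and 4 lie above taurine arrays 1 and 2 in all but Kif2c.

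Without control 3 and control 4, 4 members rose in low protein against control, namely Ccnd2, E2f1, Mcm5 and Cdt1, while 19.5% of all probe sets passed and 10.8% rose. The medians were then 0.32 in G1, 0.32 in S phase and 0.02 in G2 and mitosis, against 0.27, 0.20 and 0.05 with all arrays. Relative to the control mean, the S phase median was -0.13 and -0.07 on control 1 and control 2. It was 0.05 and 0.16 on control 3 and control 4. Ccnd1 was at 0.38 (limma adjusted p = 0.0802), Ccnd3 at 0.14 (0.151) and Kif2c at 0.22 (0.156). After cyclic loess normalization 0 of 39 members passed in limma, 2 had an unadjusted p under 0.05, and 13.5% of all probe sets passed, with 4.98% higher and 8.54% lower. The median stayed above 0 in G1 at 0.16 and in S phase at 0.055, and turned to -0.09 in G2 and mitosis. When those 2 control arrays were also left out, cyclic loess gave 0 of 39 that passed in limma and 6 that had an unadjusted p under 0.05, while 10.4% of all probe sets passed, and the medians were 0.23, 0.20 and -0.09. Single arrays decided the number of calls: it was 1 without control 1, control 2, low protein 2 or low protein 3, and 2 without control 3 or low protein 4.

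Other genes of the pathway were taken from fixed lists. Of 35 other replication genes measured 8 rose and 0 fell, or 22.9% against 21.8% of all probe sets, with a median of 0.17. Pola2, a subunit of the priming polymerase, rose by 0.43 (limma adjusted p = 0.00576), Rfc3, a subunit of the clamp loader, by 0.42 (0.00573) and Pole, the leading strand polymerase, by 0.40 (0.0316). Pola2 and Rfc3 also passed after cyclic loess, at 0.32 (limma adjusted p = 0.022) and 0.38 (0.00882), and all 3 passed without control 3 and control 4. After cyclic loess 2 of the 35 rose, or 5.71% against 4.98% of all probe sets. Without control 3 and control 4, 5 of the 35 rose, or 14.3% against 10.8%. Of 36 other mitotic genes 0 passed in limma, with a median of 0.07 and 1 at an unadjusted p under 0.05. After cyclic loess 2 of these 36 fell, beside 8.54% of all probe sets, with a median of -0.03.

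Among 10 transcription regulators 1 rose, E2f3 at 0.29 (limma adjusted p = 0.0143), an activating E2F factor, beside 21.8% of all probe sets. After cyclic loess E2f3 was at 0.235 (limma adjusted p = 0.0515) and 0 of 10 passed, with 1 at an unadjusted p under 0.05. Foxm1 and Mybl2, which drive mitotic genes, were at 0.17 and 0.10 and Myc at 0.07, and none of these passed. Of 12 inhibitors and checkpoint genes 1 rose and 1 fell, beside 21.8% and 11.9% of all probe sets. Cdkn1a, which encodes the kinase inhibitor p21, rose by 0.30 (limma adjusted p = 0.0102) and Cdkn2b, an inhibitor of Cdk4, fell by 0.27 (0.00883). Without control 3 and control 4, Cdkn1a was at 0.23 (limma adjusted p = 0.0659) and Cdkn2b at -0.33 (0.016). After cyclic loess they were at 0.185 (limma adjusted p = 0.0791) and -0.26 (0.0104). The inhibitor genes Cdkn1b (0.09) and Cdkn1c (0.23) did not pass.

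Some markers of cell types also passed. Of 5 myoblast and satellite cell markers 3 rose, Cdh15 by 0.38, Myf5 by 0.29 and Myog by 0.27, and of 6 endothelial markers 3 rose, beside the 21.8% of all probe sets that rose and 35.8% of those with 1 symbol above the median level. The summed level of the myoblast list, as its mean, lay between 8.88 and 9.27 in control, between 9.31 and 9.46 in low protein and between 9.20 and 9.33 with taurine, and Pax7 and Pax3 were not analysed here. The endothelial list lay between 8.89 and 9.09 in control and between 9.14 and 9.19 in low protein. Without control 3 and control 4, 0 of 5 myoblast and 2 of 6 endothelial markers rose, beside 10.8% of all probe sets. After cyclic loess 0 of either list rose, beside 4.98%. Of 5 fibroblast markers 1 rose, and 0 of 6 macrophage, 5 cartilage, 2 Schwann cell and 7 muscle fibre markers passed. Of 12 hepatocyte markers 3 fell and of 9 erythroid markers 3 fell, beside 11.9% of all probe sets. Their medians were -1.92 and -0.40, and 0.31 and 0.04 without control 3 and control 4. The part of these cells in the values of the G1 and S phase genes was not tested.

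**Figure D4:**
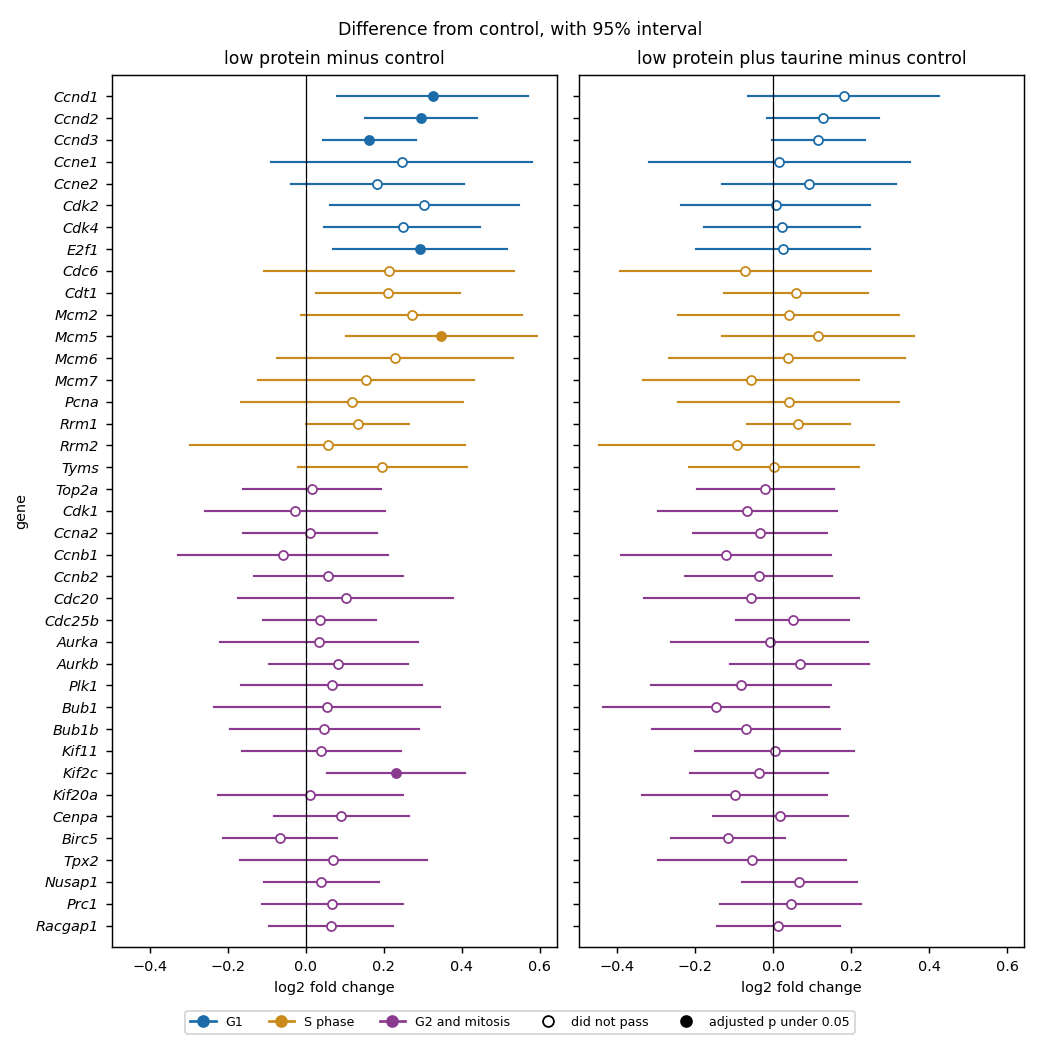
Log2 fold change of each measured gene (x axis) with its 95% interval, for low protein minus control (left) and low protein plus taurine minus control (right). Filled points passed an adjusted p of 0.05. The left panel has 6 filled points, 4 of them in G1, and the right panel has 0. Both panels use the same 4 control arrays.

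Low protein plus taurine against control asks how the muscle of the supplemented group differed from control. Of 39 members 0 passed in limma and 0 had an unadjusted p under 0.05, while 13.8% of all probe sets passed, with 10.2% higher and 3.6% lower. The 4 control arrays are those of the comparison above. The medians were 0.06 in G1, 0.04 in S phase and -0.04 in G2 and mitosis, against 0.06 over all probe sets and 0.13 over the 6589 named ones above the median level. Above 0 lay 22 of 39 members, beside 11869 of all 18957 probe sets and 5706 of those 6589. The smallest p in G1 were those of Ccnd3 and Ccnd2, at 0.12 (limma adjusted p = 0.152) and 0.13 (0.186). In S phase they were those of Rrm1 and Mcm5, at 0.06 (limma adjusted p = 0.46) and 0.12 (0.475). In G2 and mitosis they were those of the survivin gene Birc5 and the checkpoint kinase gene Bub1, at -0.115 (limma adjusted p = 0.233) and -0.15 (0.443). Groups overlapped in all 39 members, while 20.2% of all probe sets did not overlap. Without control 3 and control 4, 0 of 39 passed in limma and 0 had an unadjusted p under 0.05, with 4.78% of all probe sets passing, and the medians were 0.115, 0.15 and -0.02. Under cyclic loess 0 passed and 1 had an unadjusted p under 0.05, with 6% of all probe sets passing, and the G1 and S phase medians turned to -0.04 and -0.10.

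The taurine arrays did not form a tight group. Ccnd1 was at 9.05, 8.91, 9.53 and 9.40 in low protein plus taurine 1 to 4, so that arrays 1 and 2 lay at the control level and arrays 3 and 4 at the low protein level. Ccnd2 (10.13, 10.09, 10.29 and 10.29), Ccnd3 (11.17, 11.11, 11.31 and 11.25) and E2f1 (7.50, 7.35, 7.80 and 7.68) were ordered in the same way. Mcm5 read 7.59, 7.60, 8.11 and 8.03, and Cdt1 7.37, 7.28, 7.56 and 7.55. Arrays 3 and 4 both lay above arrays 1 and 2 in 7 of 8 members of G1, 9 of 10 of S phase and 7 of 21 of G2 and mitosis. This split was picked with these values known, and the share over all probe sets was not counted, so it is given as a description.

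Low protein plus taurine 2 was the lowest of its group in 37 of 39 members and the lowest of all 12 arrays in 29 of them. The share over all probe sets was not counted, so how far this is a trait of the whole array was not tested. In G2 and mitosis it was the lowest of its group in 20 of 21 members, by margins that differed between genes, and Cdc25b was the exception, at 9.39 against 9.29, 9.29 and 9.35 on arrays 1, 3 and 4. Bub1 was at 8.15, 7.60, 8.27 and 8.18 in arrays 1 to 4, Kif2c at 7.26, 6.99, 7.41 and 7.18, and Cenpa at 7.53, 7.48, 7.67 and 7.51. Cdk1 was at 8.44, 8.15, 8.67 and 8.35, Pcna at 9.36, 9.23, 9.79 and 9.61, Birc5 at 7.10, 6.97, 7.26 and 7.03, and Rrm1 at 10.16, 10.07, 10.30 and 10.26. For Birc5 the control arrays read 7.16, 7.22, 7.19 and 7.26 and the low protein arrays 7.03, 7.25, 7.12 and 7.16. For Rrm1 they read 10.06, 10.12, 10.14 and 10.20, and 10.16, 10.30, 10.27 and 10.31. Relative to the control mean, the median of G2 and mitosis was -0.27 on array 2, and 0.01, 0.14 and -0.01 on arrays 1, 3 and 4. Among 36 other mitotic genes array 2 was the lowest of all 12 arrays in 26, among 35 other replication genes in 9 and among 12 inhibitors and checkpoint genes in 0. Its hepatocyte markers averaged 7.21 and its erythroid markers 8.31, against 6.55 to 6.69 and 7.89 to 8.14 on the other taurine arrays. On low protein 2 the hepatocyte markers averaged 7.82, above taurine array 2, and the erythroid markers 7.85, below it. The part of these cells in the low values of taurine array 2 was not tested.

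**Figure D5:**
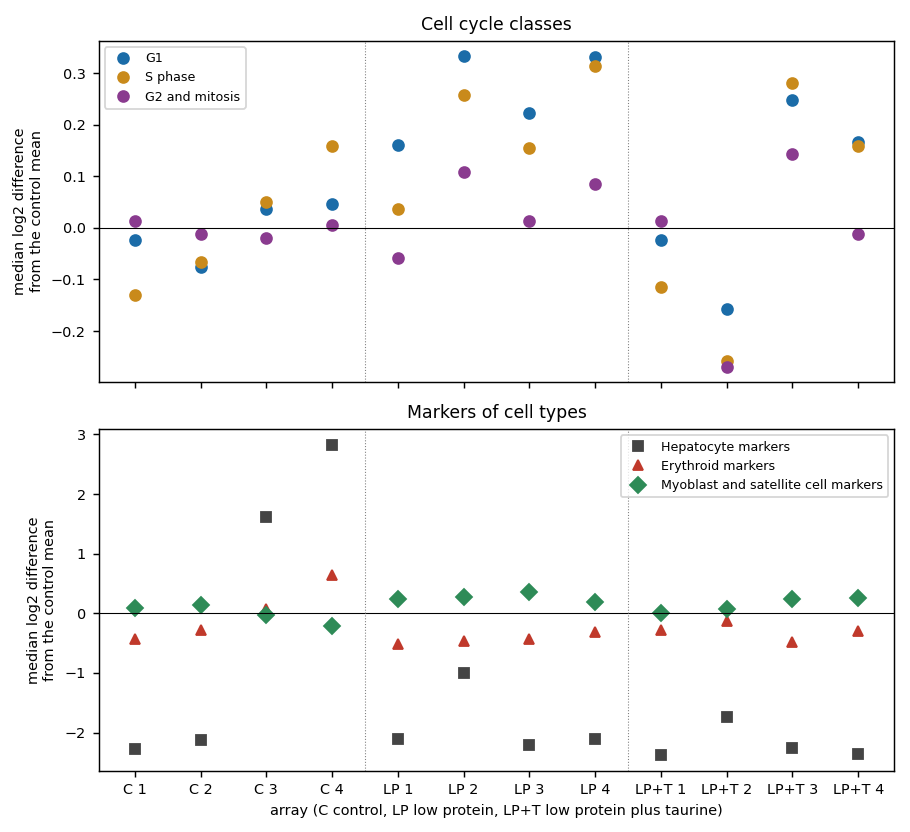
Median log2 difference from the control mean for each class of cell cycle genes (upper panel) and for markers of 3 cell types (lower panel), with a point per array. All 3 classes lie between -0.27 and -0.16 on low protein plus taurine 2, and hepatocyte markers lie at 1.62 and 2.83 on control 3 and control 4.

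The list of inhibitors and checkpoint genes read higher on taurine arrays 1 and 2 than on arrays 3 and 4. Its median relative to control was 0.24 and 0.27 on arrays 1 and 2, and 0.07 and 0.06 on arrays 3 and 4. Relative to control 1 and control 2 alone it was 0.15 and 0.20, and -0.01 and -0.02. The median of all members relative to control was -0.004 on array 1 and -0.245 on array 2. Cdkn1b, which encodes the kinase inhibitor p27, was at 9.81 and 9.71 on arrays 1 and 2 and at 9.48 and 9.49 on arrays 3 and 4, and did not pass against control (limma adjusted p = 0.0906). Mdm2, which degrades p53, rose by 0.34 with taurine against control (limma adjusted p = 0.0154) and was the inhibitor or checkpoint gene that passed of 12. Myc rose by 0.30 (limma adjusted p = 0.0225) and E2f5, a repressive E2F factor, by 0.335 (0.0492). These are 2 of 10 regulators and 1 of 12 inhibitors, beside the 10.2% of all probe sets that rose, and 0 of either list passed in limma after cyclic loess or without control 3 and control 4, with 2 of each list at an unadjusted p under 0.05 under both. After cyclic loess Mdm2 was at 0.205 (limma adjusted p = 0.0689), Myc at 0.26 (0.0541) and E2f5 at 0.275 (0.128), and without control 3 and control 4 their adjusted limma p lay between 0.0667 and 0.227. Rpa2, a single-strand DNA binding protein, rose by 0.21 (limma adjusted p = 0.0497), the 1 call among 35 other replication genes, and was at 0.09 after cyclic loess (0.342) and at 0.17 without control 3 and control 4 (0.226).

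Without taurine arrays 1 and 2, a choice made with these values known, 2 of 39 members rose against control, Ccnd1 at 0.42 (limma adjusted p = 0.0294) and Mcm5 at 0.35 (0.0416), while 5.34% of all probe sets passed and 4.47% rose. The medians were then 0.20 in G1, 0.19 in S phase and 0.06 in G2 and mitosis.

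Low protein plus taurine against low protein asks what taurine changed on the same diet. Of 39 members 0 passed in limma, as did 0 of all 18957 probe sets, and 5 members had an unadjusted p under 0.05. These were Ccnd2, Cdk2, Cdk4, E2f1 and Kif2c, and all 5 lay lower with taurine. Cdk2 was at 8.41, 8.31, 8.37 and 8.53 in control, at 8.66, 8.75, 8.73 and 8.69 in low protein and at 8.33, 8.04, 8.69 and 8.58 with taurine, a log2 fold change of -0.30 (SE 0.11; limma adjusted p = 0.412). Only array 3 of the taurine group reached the low protein range.

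Kif2c was at -0.27 (limma adjusted p = 0.367), E2f1 at -0.27 (0.419), Mcm5 at -0.23 (0.482), Bub1 at -0.20 (0.585) and Tyms at -0.19 (0.503). Tyms was at 8.76, 8.89, 8.89 and 8.85 in control, at 8.94, 9.10, 9.01 and 9.13 in low protein and at 8.70, 8.58, 9.06 and 9.06 with taurine. Bub1 was at 8.39, 8.12, 8.20 and 8.06 in control and at 8.11, 8.36, 8.12 and 8.41 in low protein, so that its groups overlapped. Ccnd2 was the 1 member of 39 whose taurine arrays all read lower than every low protein array, against 3.51% of all probe sets, with a log2 fold change of -0.17 (95% interval -0.312 to -0.025; limma adjusted p = 0.421).

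In this comparison 37 of 39 members lay below 0, with medians of -0.20 in G1, -0.19 in S phase and -0.05 in G2 and mitosis, against 0.00 over all probe sets. Below 0 lay 9223 of all 18957 probe sets and 3913 of the 6589 named ones above the median level, whose median was -0.02. Without taurine arrays 1 and 2 the medians were -0.03, 0.01 and 0.01, and 15 of 39 members lay below 0, beside 8929 of 18957 probe sets. As these arrays were left out because they read low, the move toward 0 follows from the choice and is given as a description. The authors' deposited table of probe sets selected over the 3 groups holds 0 of the 39 members. It holds 1318 probe sets, beside 18957 detected, and with a share this small 0 of 39 does not set the members apart.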

How the data were processed

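RNA of 12 pools was hybridised to Affymetrix arrays. The deposited log2 expression values per probe set were made by the authors with RMA in R 3.2.2, per the submitters' processing notes. No RMA version or build is given in the sources used here. A detection filter by the authors, who also took out control probe sets, per the deposited descriptions, kept 18957 of 29214. Groups came from the sample titles.

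All arrays entered 1 fit of 3 group means in limma 3.58.1 (R 4.3.3), with eBayes without trend or robust options, two-sided, and p-values adjusted by Benjamini-Hochberg across the whole table at a threshold of 0.05. Symbols came from the platform annotation and, through gene identifiers, RefSeq. RMA pulls arrays toward a shared distribution, so differences are relative to the other probe sets. All members with a probe set may be named. Values on every array are given for Ccnd1, Ccnd2, Ccnd3, Pcna, Cdk1 and E2f1 and, by class and comparison, for up to 4 passing members with the largest change, filled up to 2 by smallest p. In the other lists the 3 largest passing changes, Cdkn1a, Cdkn1b, Cdkn1c, Foxm1, Mybl2 and Myc are named. Members, lists and alternatives were chosen with earlier results of these data known. Markers and arrays described beyond this rule, such as Rrm2 in control 4, were picked with their values known. Alternatives changed the scaling, the probe sets, the threshold, the fit and the arrays. The fit was tested on simulated data. No 2 arrays were identical (highest correlation 0.9944).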

Additional observations from a re-analysis of the deposited data

Results flagged for a closer look

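Within the groups of 4 arrays, 3 of 117 combinations of a member and a group had an array far from the others, where chance gives about 1 in 20. Ccnd2 was at 10.51 in low protein 1 against 10.31 to 10.33 on the other low protein arrays, a gap of 0.884 of the group's range. Mcm5 was at 7.97 in low protein 1 against 8.09 to 8.11, a gap of 0.865. Kif2c was at 7.29 in control 1 against 7.23 to 7.24, a gap of 0.896. Both low protein 1 values lie above all control values.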

How the results depend on the processing

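In low protein against control 6 members passed. The number was 10 with only the 2 groups compared, 1 each with the table of all probe sets, a further quantile normalization, centring on the median and an adjusted p of 0.01, and 0 with cyclic loess, with cyclic loess without control 3 and control 4 (added after seeing the data) and with the methods' t-test after Bonferroni, against 7 with that test after Benjamini-Hochberg. Leaving out a single array gave 1 to 5. With the replicate number as a block it was also 6, but Ccnd3 (limma adjusted p = 0.0582) and Kif2c (0.0701) no longer passed and 2 other members did. Numbers stand for different dams, so they do not pair the arrays by dam. Of 12 same-number pairs 3 had deviations correlated above 0.1. Pairs with different numbers were not set beside them, so this count cannot show whether same-number arrays share anything else. With trend and robust options or array weights it was 8. None of the 6 members changed direction under these alternatives. The median of G2 and mitosis, 0.047, turned to -0.057 after quantile normalization, -0.034 after centring, -0.09 after cyclic loess and -0.087 after cyclic loess without control 3 and control 4. In low protein plus taurine against control 0 passed under every alternative except 2 without taurine arrays 1 and 2, where the G1 median was 0.204. Against low protein 0 passed under each alternative, and without these arrays the medians were -0.032 in G1 and 0.01 in S phase. The median of all probe sets, 0.07 in low protein against control, was 0.029 after quantile normalization, -0.012 after centring and 0.002 after cyclic loess. The cause of these moves was not tested. No detection values were used, so signal over background could not be checked, and with 4 dams a group small changes cannot be told from the spread.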
